A study of Mus musculus with 3 samples.

Results

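Collagen VI and the fibril-associated collagens are the chains that lie on and between the thick collagen fibrils of connective tissue. The 6 genes described here, Col6a1, Col6a2, Col6a3, Col12a1, Col14a1 and Col16a1, were chosen by symbol among the protein-coding entries of a table of 56748 genes, and all 6 were found. They were read in fibroblasts of visceral fat from wild-type mice fed a high-fat diet, cells of the stromal vascular fraction left after magnetic removal of those carrying CD45, CD31 or Ter119. The cells had been given recombinant mouse oncostatin M (Osm, a cytokine of the interleukin 6 family) at 3 ng/mL for 24 h, TGF-beta1 (transforming growth factor beta 1, a fibrogenic growth factor, as the recombinant human protein) at 3 ng/mL for 24 h, or vehicle, whose time is not given. Ages, animal numbers and pooling are not given either. Each condition had 1 library of bulk RNA, so no difference has a replicate check, no p-value is given, and every interval is a 95% interval of counting error only. In bulk RNA, fewer cells of a type and less RNA per cell cannot be told apart.

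Collagen VI is built from an alpha 1, an alpha 2 and an alpha 3 chain, encoded by Col6a1, Col6a2 and Col6a3, which join inside the cell and leave it as preassembled units that form beaded microfilaments around cells. In fat it is an abundant part of the matrix around adipocytes, and a fragment cut from the tail of the alpha 3 chain is known as endotrophin. Collagens XII, XIV and XVI belong to the fibril-associated collagens with interrupted triple helices (FACITs). They form no fibrils of their own, and the family is named for its association with collagen fibrils. Which fibrils each of these chains binds was not examined here.

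TGF-beta1 split the 6 chains. In the TGF-beta1 library the 3 collagen VI chains and Col14a1 were lower than in the vehicle library, by 1.54-fold to 2.79-fold, while Col12a1 and Col16a1 were higher, by 1.75-fold and 2.11-fold. In the Osm library all 6 chains lay below vehicle, by at most 1.37-fold, though Col16a1 did not differ from vehicle beyond counting error. The summed level of Col6a1, Col6a2 and Col6a3 was 1333 CPM (counts relative to the size of the library, scaled between libraries) with Osm, 792 CPM with TGF-beta1 and 1581 CPM with vehicle. The summed level of Col12a1, Col14a1 and Col16a1 was 760 CPM with Osm, 1434 CPM with TGF-beta1 and 895 CPM with vehicle. The TGF-beta1 library thus had the lowest collagen VI sum and the highest FACIT sum of the 3.

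The promoter sequences below are shown as description, and a link between them and the levels of the chains was not tested. They are RefSeq windows of the build GRCm38.p6, whose coordinates differ from those of mm39 given further on, from 250 bases before to 50 bases after the start site, each 300 bases, 5′ to 3′ on the gene's strand. Windows were found for these 4 of the 6 genes. Capitals mark matches, on either strand, to the motifs searched, of which the GC box GGGCGG, its reverse complement included, and the AP-1 motif TGANTCA occurred in the windows printed.
Col6a1, chr10:76725995-76726294, minus strand: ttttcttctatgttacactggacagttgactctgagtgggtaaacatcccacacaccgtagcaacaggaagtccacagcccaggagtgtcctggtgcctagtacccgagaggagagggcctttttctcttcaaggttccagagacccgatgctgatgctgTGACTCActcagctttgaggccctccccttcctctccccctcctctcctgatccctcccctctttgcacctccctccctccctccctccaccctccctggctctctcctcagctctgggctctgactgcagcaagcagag
Col6a2, chr10:76623355-76623654, minus strand: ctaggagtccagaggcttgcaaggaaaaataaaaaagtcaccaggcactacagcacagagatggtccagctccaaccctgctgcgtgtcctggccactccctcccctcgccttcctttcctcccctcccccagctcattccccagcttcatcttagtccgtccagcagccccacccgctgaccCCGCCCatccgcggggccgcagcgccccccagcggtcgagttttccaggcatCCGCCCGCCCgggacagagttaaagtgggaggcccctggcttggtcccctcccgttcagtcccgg
Col6a3, chr1:90843922-90844221, minus strand: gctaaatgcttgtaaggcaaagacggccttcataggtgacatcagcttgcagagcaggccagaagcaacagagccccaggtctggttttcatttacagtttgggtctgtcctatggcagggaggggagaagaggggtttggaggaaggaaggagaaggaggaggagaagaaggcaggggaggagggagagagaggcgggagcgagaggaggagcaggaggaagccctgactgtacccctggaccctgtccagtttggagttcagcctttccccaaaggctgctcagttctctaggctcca
Col16a1, chr4:130047590-130047889, plus strand: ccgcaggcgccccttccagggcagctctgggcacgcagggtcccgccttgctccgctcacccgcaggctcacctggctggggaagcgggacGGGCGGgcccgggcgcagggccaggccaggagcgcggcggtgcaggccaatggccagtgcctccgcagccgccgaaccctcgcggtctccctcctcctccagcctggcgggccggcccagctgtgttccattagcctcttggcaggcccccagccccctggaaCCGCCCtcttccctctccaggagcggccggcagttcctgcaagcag

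The Col6a1 window held 1 AP-1 match, starting 90 bases before the start site (position -90), a motif found in 7.81% of the 32851 windows of the table. Col6a2, for which the table has a second window with 1 GC box, held 3 GC boxes in the window shown, the 2 nearest the start site overlapping each other. Col16a1 held 2 GC boxes, a motif present in 35.7% of all windows. Col6a3 held none of the motifs searched. None of the 5 windows of the 4 genes matched the Stat motif TTCNNNGAA (8.30% of all windows), the Smad motif CAGACA (21.0%) or the TATA box TATAAA (13.6%), which says only that these letters are not in these windows. G and C made up 57.3% of the Col6a1 window, 64.3% of the Col6a2 window shown, 56.3% of the Col6a3 window and 74.3% of the Col16a1 window, against a median of 52.7% over all windows.

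The libraries held 17319872 counted reads with Osm, 18533741 with TGF-beta1 and 18336068 with vehicle, and the comparisons cover the 13712 genes that reached 1 CPM in any of them. All 6 fibroblast markers on a short list (Pdgfra, Pdgfrb, Col1a1, Dcn, Lum and Thy1) exceeded 1 CPM in all 3 libraries. They summed to 8543 CPM with Osm, 11093 CPM with TGF-beta1 and 9131 CPM with vehicle, and moved in different directions. Of the 6, Col1a1 was higher with TGF-beta1 than with vehicle and the other 5 were lower, with Pdgfra at 1122 CPM with Osm, 697 CPM with TGF-beta1 and 1129 CPM with vehicle and Pdgfrb at 1379.6 CPM with Osm, 1319 CPM with TGF-beta1 and 1405 CPM with vehicle. The markers of every other cell type summed to less, although Tek and Wt1 were at levels like that of Thy1, which was at 41.4 CPM with Osm, 34.2 CPM with TGF-beta1 and 41.6 CPM with vehicle. The 7 leukocyte markers summed to 15.9 CPM with Osm, 14.8 CPM with TGF-beta1 and 18.6 CPM with vehicle, led by Csf1r and Cd68. The pan-leukocyte gene Ptprc (CD45) was at 0.115 CPM with Osm and at 0 with TGF-beta1 and with vehicle. The 5 mural markers summed to 22.7 CPM with Osm, 13.7 CPM with TGF-beta1 and 20.1 CPM with vehicle, and the 5 endothelial markers, nearly all of it Tek, to 40.7 CPM with Osm, 36.3 CPM with TGF-beta1 and 50.4 CPM with vehicle. The endothelial gene Pecam1 (CD31) stayed below 0.3 CPM in each library. The 5 mesothelial markers, led by Wt1, summed to 39.5 CPM with Osm, 48.0 CPM with TGF-beta1 and 40.4 CPM with vehicle. All 4 erythroid markers were at 0, and the 4 adipocyte and 4 Schwann cell markers summed to under 1 CPM in each library. The part of these other cells in the values of the collagen chains was not tested.

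A gene was counted as past the 2-fold rule when its ratio between 2 libraries was at least 2-fold either way and the counting interval excluded a ratio of 1. With TGF-beta1 over vehicle, 1 of the 6 chains was past the rule upward (Col16a1) and 3 downward (Col6a1, Col6a3 and Col14a1). Of all 13712 genes compared, 2.27% were past it upward and 4.79% downward, and of the 9358 genes that reached 10 CPM, as all 6 chains did, 0.994% upward and 2.44% downward. At 1.5-fold, 2 chains were higher and all the other 4 lower, against 6.01% and 9.53% of all genes compared. With Osm over vehicle none of the 6 passed, against 0.948% of all genes upward and 0.649% downward. Of the genes that reached 10 CPM, only 0.0748% passed in each direction there. With Osm over TGF-beta1, Col6a3 and Col14a1 passed upward and Col12a1 and Col16a1 downward, against 5.07% and 2.42% of all genes. The shares were 2.4% and 1.14% of the genes that reached 10 CPM. The median log2 ratio of the 6 chains was -0.82 with TGF-beta1 over vehicle, where that of all genes compared was 0.013. It hides the split into chains that were higher and chains that were lower.

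**Figure D1:**
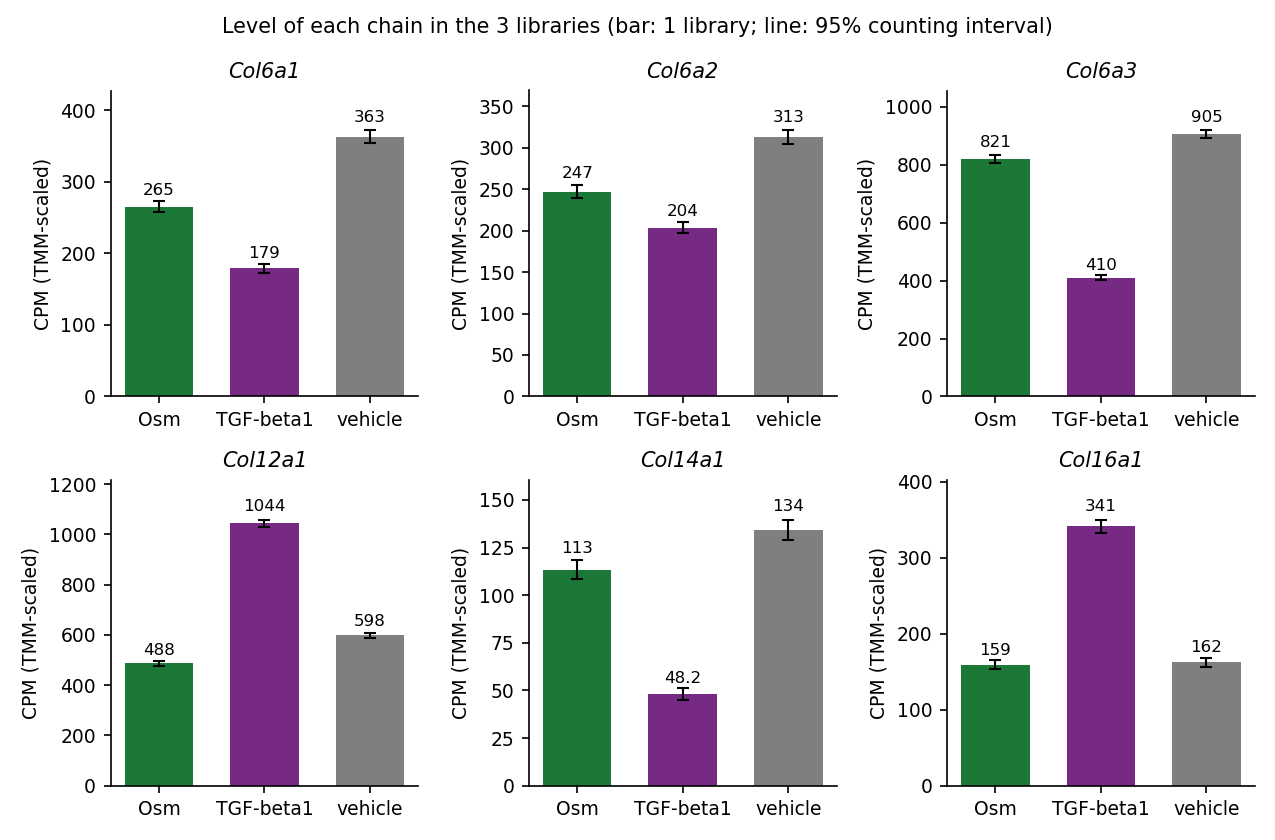
Level of each of the 6 chains in CPM (y axis, from 0, its own range in each panel) in the Osm, TGF-beta1 and vehicle libraries; a bar is 1 library and the line its 95% counting interval. TGF-beta1 bars are lowest for Col6a1, Col6a2, Col6a3 and Col14a1 and highest for Col12a1 and Col16a1.

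Col6a1, the gene of the collagen VI alpha 1 chain (ENSMUSG00000001119, chromosome 10, 76544626 to 76562002, minus strand, build mm39), had 4594 counts with Osm, 3296 with TGF-beta1 and 6680 with vehicle. The levels were 265 CPM with Osm, 179 CPM with TGF-beta1 and 363 CPM with vehicle, and their 3 counting intervals did not overlap. The TGF-beta1 library was 2.03-fold lower than vehicle (interval 1.95 to 2.12), so that the interval reaches to either side of 2-fold. The Osm library was 1.37-fold lower than vehicle (1.32 to 1.42), the largest Osm difference among the 6 chains. Of all genes compared, 4.92% were as far below vehicle with Osm or farther.

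Col6a2, which encodes the alpha 2 chain (ENSMUSG00000020241, chromosome 10, 76431596 to 76459464, minus strand), lies 85.2 kb from Col6a1 on the same strand. It had 4289 counts with Osm, 3752 with TGF-beta1 and 5757 with vehicle, or 247 CPM with Osm, 204 CPM with TGF-beta1 and 313 CPM with vehicle. The order of the libraries was that of Col6a1, but the differences were smaller. With TGF-beta1 it was 1.54-fold lower than vehicle (1.47 to 1.60), short of the 2-fold rule, and with Osm 1.27-fold lower (1.22 to 1.32).

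Col6a3, the gene of the longer alpha 3 chain (ENSMUSG00000048126, chromosome 1, 90693645 to 90771693, minus strand), had 14246 counts with Osm, 7557 with TGF-beta1 and 16651 with vehicle. The levels were 821 CPM with Osm, 410.0 CPM with TGF-beta1 and 905 CPM with vehicle. Osm and vehicle lay close together here and TGF-beta1 stood well below both. Against vehicle it was 2.21-fold lower with TGF-beta1 (2.15 to 2.27) and 1.10-fold lower with Osm (1.08 to 1.13). Set directly against TGF-beta1, the Osm library was 2.00-fold higher (1.95 to 2.06), at the edge of the rule, and with the size factors of DESeq2 the log2 ratio was 0.99, just short of it.

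Col12a1, which encodes the FACIT collagen XII (ENSMUSG00000032332, chromosome 9, 79506273 to 79626113, minus strand), had the highest level per length of the 6 chains in the TGF-beta1 library. It had 8460 counts with Osm, 19247 with TGF-beta1 and 11010 with vehicle, or 488 CPM with Osm, 1044 CPM with TGF-beta1 and 598 CPM with vehicle. TGF-beta1 was 1.75-fold higher than vehicle (1.70 to 1.79), short of the 2-fold rule, and only 3.76% of all genes compared were as far above vehicle or farther. Osm was 1.23-fold lower than vehicle (1.19 to 1.26). The 2 ligands lay on opposite sides of vehicle, and their direct comparison was past the rule, with Osm 2.14-fold lower than TGF-beta1 (2.09 to 2.20).

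Col16a1, the gene of collagen XVI (ENSMUSG00000040690, chromosome 4, 129941633 to 129993076, plus strand), had 2762 counts with Osm, 6294 with TGF-beta1 and 2984 with vehicle. At 159 CPM with Osm and 162 CPM with vehicle these libraries did not differ beyond counting error (1.02-fold lower with Osm, 0.967 to 1.07). The TGF-beta1 library, at 341 CPM, was 2.11-fold higher than vehicle (2.02 to 2.20). Of all genes compared, 2.04% were as far above vehicle or farther. Osm was 2.15-fold lower than TGF-beta1 (2.05 to 2.24), a ratio close to that of Col12a1.

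Col14a1, which encodes collagen XIV (ENSMUSG00000022371, chromosome 15, 55171146 to 55384199, plus strand), went the other way from its FACIT relatives. It had 1966 counts with Osm, 888 with TGF-beta1 and 2470 with vehicle, or 113 CPM with Osm, 48.2 CPM with TGF-beta1 and 134 CPM with vehicle. The TGF-beta1 library was 2.79-fold lower than vehicle (2.58 to 3.01), the largest difference of any of the 6 chains, and 2.11% of all genes compared were as far below vehicle or farther. Osm was 1.18-fold lower than vehicle (1.12 to 1.26) and 2.35-fold higher than TGF-beta1 (2.17 to 2.55). Of the 3 annotated genes that overlap Col14a1 on the opposite strand, the highest, Gm18787, was at 1.21 CPM with Osm, 0.922 CPM with TGF-beta1 and 1.09 CPM with vehicle. The genes overlapping Col6a3 and Col12a1 stayed below 1 CPM in all 3 libraries, and Col6a1, Col6a2 and Col16a1 overlap none. None of the 50-base windows sampled every 10 bases from the main transcript of each chain occurred in a transcript of another gene.

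**Figure D2:**
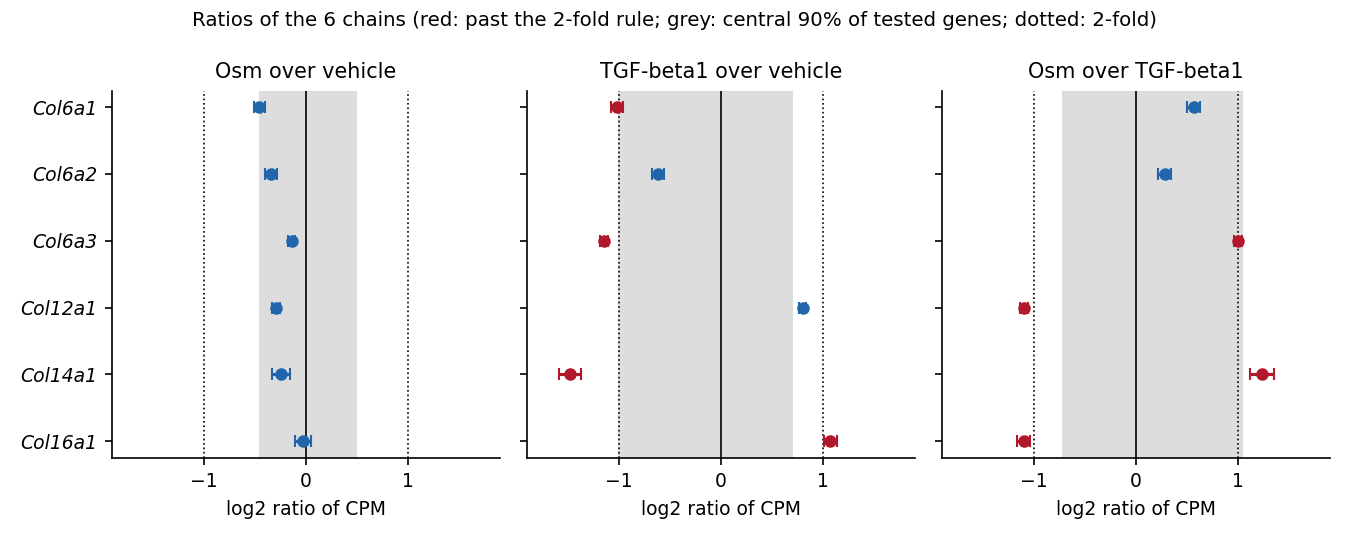
Log2 ratio of CPM (x axis) for each of the 6 chains (y axis) in 3 panels, for each ligand over vehicle and for Osm over TGF-beta1; a point is the ratio of 2 libraries, its line the 95% counting interval, red marks the 2-fold rule, dotted lines 2-fold and the grey band the central 90% of all genes compared. Ratios of Osm over vehicle lie between -0.46 and -0.03, those of TGF-beta1 over vehicle run from -1.48 for Col14a1 to 1.07 for Col16a1, and those of Osm over TGF-beta1 from -1.10 for Col16a1 to 1.23 for Col14a1.

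The Osm differences were small but shared a direction. All 6 ratios were below 0, where 49.4% of all genes compared were, and the counting interval excluded 1 on the lower side for 5 of 6, where it did so for 10.6% of all genes. That share depends on depth, since the interval of an abundant gene is narrower. The median log2 ratio of the 6 chains was -0.27, against 0.0021 for all genes compared. The Osm and TGF-beta1 comparisons use the same vehicle library.

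The balance between the chains was then described per length, with the authors' FPKM values (which divide the fragments of a gene by its length and by library size). By this measure Col6a1 was at 60.2 FPKM with Osm, 40.9 FPKM with TGF-beta1 and 82.9 FPKM with vehicle. Col6a2 was at 29.6 FPKM with Osm, 24.5 FPKM with TGF-beta1 and 37.6 FPKM with vehicle, and Col6a3 at 68.4 FPKM with Osm, 34.3 FPKM with TGF-beta1 and 75.7 FPKM with vehicle. Col6a2 was thus the lowest of the collagen VI chains in every library by the deposited lengths, an order that did not hold with transcript lengths. Among the FACIT chains, Col12a1 was at 31.9 FPKM with Osm, 68.7 FPKM with TGF-beta1 and 39.3 FPKM with vehicle. Col16a1 was at 23.5 FPKM with Osm, 50.7 FPKM with TGF-beta1 and 24.0 FPKM with vehicle, and Col14a1 at 16.1 FPKM with Osm, 6.88 FPKM with TGF-beta1 and 19.2 FPKM with vehicle. In the Osm and vehicle libraries the highest pair was Col6a1 and Col6a3, and in the TGF-beta1 library it was Col12a1 and Col16a1. Col14a1 was the lowest of the 6 in all 3 libraries.

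These per-length levels depend on the length assigned to a gene. The deposited length of Col6a2 is 8326 bases, while its transcript with the longest coding sequence in GENCODE vM21 has 3949 bases. For Col6a1 the lengths are 4380 and 4100 bases and for Col6a3 11963 and 10106 bases. By the deposited lengths Col6a2 made up 18.7% of the summed collagen VI level with Osm, 24.6% with TGF-beta1 and 19.2% with vehicle, but by the transcript lengths 30.0% with Osm, 38.0% with TGF-beta1 and 30.8% with vehicle. With transcript lengths the 3 chains were nearly level in the vehicle library, at 34.4% for Col6a1, 30.8% for Col6a2 and 34.8% for Col6a3. Col6a3 and Col6a1 then did not differ beyond counting error with vehicle (ratio 1.01, 0.983 to 1.04). In the TGF-beta1 library Col6a2 was then the highest of the 3, against 32.1% for Col6a1 and 29.9% for Col6a3.

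How the chains shifted relative to each other does not depend on the length assigned to a gene, which cancels. This takes the length of a gene as the same in every library, and a change in transcript use was not tested. The ratio of Col6a3 to Col6a2 was 1.44-fold lower with TGF-beta1 than with vehicle (1.37 to 1.51) and 1.15-fold higher with Osm than with vehicle (1.10 to 1.20). The ratio of Col6a2 to Col6a1 was 1.32-fold higher with TGF-beta1 than with vehicle (1.25 to 1.40) and 1.08-fold higher with Osm (1.03 to 1.14). The 3 chains of collagen VI were thus all lower with TGF-beta1 but not in equal measure, with Col6a2 the nearest to vehicle. Among the FACITs, the ratio of Col12a1 to Col14a1 was 4.86-fold higher with TGF-beta1 than with vehicle (4.49 to 5.27) and, with Osm, within counting error of vehicle (1.04-fold lower, 0.970 to 1.11). The ratio of Col16a1 to Col14a1 was 5.87-fold higher with TGF-beta1 than with vehicle (5.37 to 6.41). The ratio of Col12a1 to Col16a1 did not differ between Osm and TGF-beta1 beyond counting error (1.00-fold, 0.951 to 1.05).

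**Figure D3:**
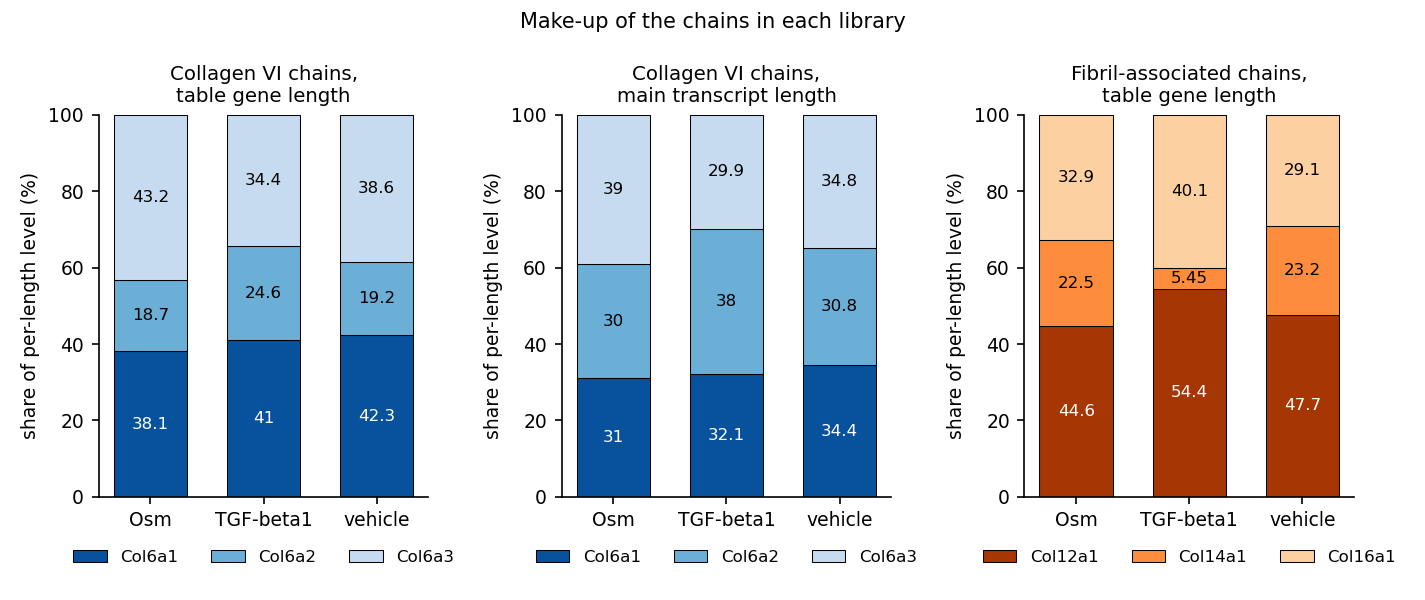
Share of each chain (y axis, percent) in the summed per-length level of the collagen VI chains, by deposited gene length and by main transcript length, and of the FACIT chains, by deposited gene length, in each library (x axis); a bar is 1 library. Col14a1 makes up 5.45% of the FACIT level with TGF-beta1, against 22.5% with Osm and 23.2% with vehicle.

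The 6 chains together took 8.74% of the counts of all 44 collagen chain genes in the Osm library, 7.19% in the TGF-beta1 library and 10.4% in the vehicle library. All collagen chain genes summed to 23955 CPM with Osm, 30966 CPM with TGF-beta1 and 23888 CPM with vehicle, so the 6 chains took a smaller share with TGF-beta1 while the sum over all chains was larger.

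The remaining chains of both families were scarce. Col6a5, an alternative to the alpha 3 chain, had 288 counts with Osm, 157 with TGF-beta1 and 374 with vehicle, and was 2.38-fold lower with TGF-beta1 than with vehicle (1.98 to 2.89). Col6a6, a further alternative, had 63 counts with Osm, 15 with TGF-beta1 and 107 with vehicle, and was 6.95-fold lower with TGF-beta1 than with vehicle (4.14 to 13.2). Both lay below vehicle with Osm as well, Col6a5 1.22-fold lower (1.05 to 1.43) and Col6a6 1.60-fold lower (1.16 to 2.22). All 5 collagen VI chains that reached 1 CPM were therefore below vehicle in both treated libraries. Of all genes compared, 49.4% were below vehicle with Osm and 48.7% with TGF-beta1, and the share below in both was not computed. Both comparisons use the same vehicle library. Col6a4 had 2 counts with Osm, 5 with TGF-beta1 and 8 with vehicle.

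Among the other FACIT chains only Col20a1 reached 1 CPM, with 68 counts with Osm, 29 with TGF-beta1 and 44 with vehicle. It overlaps a gene on the same strand, 9230112E08Rik, that was higher, at 11.2 CPM in the Osm and TGF-beta1 libraries and 12.7 CPM with vehicle, so its value is uncertain. Col9a3 had 7 counts with Osm, 16 with TGF-beta1 and 6 with vehicle. Col22a1 had 2 counts, both with TGF-beta1. Col9a1, Col9a2 and Col19a1 had 0 counts in every library, which at the limit of 3 counts used here for a count of 0 is a level of up to 0.173 CPM in the Osm library and 0.163 CPM in each of the others (0.213 CPM and 0.200 CPM at the upper bound of the exact Poisson interval).

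The fibrillar collagens, which form the fibrils, had a median log2 ratio of 0.50 with TGF-beta1 over vehicle. Genes of a list are called measured here and below when they reached 1 CPM in any library. Of the 8 measured members, 6 were above 0 and 2 below, where 48.7% of all genes compared were below 0. None was past the 2-fold rule upward, against 2.27% of all genes compared, and 1, Col27a1, was past it downward, against 4.79%. At 1.5-fold, 3 were higher and 1 lower, against 6.01% and 9.53% of all genes compared. The genes with the highest mean CPM over the 3 libraries were Col3a1 and Col1a1, though their order with the next, Col1a2, differed between libraries. Col1a1 was at 4023 CPM with Osm, 8039 CPM with TGF-beta1 and 4285 CPM with vehicle. Col3a1 was at 7276 CPM with Osm, 5701 CPM with TGF-beta1 and 6175 CPM with vehicle, and Col1a2 at 4032 CPM with Osm, 5720.4 CPM with TGF-beta1 and 4302 CPM with vehicle. Col27a1 was 2.40-fold lower with TGF-beta1 than with vehicle (1.60 to 3.72), with 34 counts in the TGF-beta1 library and 82 in the vehicle library. With Osm over vehicle the list's median was 0.11, and none of its 8 measured members passed the rule.

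Of the receptors and binding partners of collagen VI, 10 of 12 were measured. With TGF-beta1 over vehicle 2 were past the rule upward and 3 downward, against 2.27% and 4.79% of all genes compared. The list's median log2 ratio was -0.32, against 0.013 for all genes compared. Cspg4, whose product NG2 is a cell surface proteoglycan that binds collagen VI, was at 7.38 CPM with Osm, 74.9 CPM with TGF-beta1 and 8.53 CPM with vehicle, 8.75-fold higher with TGF-beta1 than with vehicle (7.43 to 10.4). Itga2, a collagen-binding integrin subunit, was 2.02-fold higher with TGF-beta1 than with vehicle (1.48 to 2.80), at 6.73 CPM with TGF-beta1 and 3.32 CPM with vehicle. The small proteoglycan gene Dcn (decorin) was at 1757 CPM with Osm, 824 CPM with TGF-beta1 and 1984 CPM with vehicle, 2.41-fold lower with TGF-beta1 than with vehicle (2.36 to 2.45). Matn2, of the matrilin adaptor family, was 2.11-fold lower with TGF-beta1 than with vehicle (1.91 to 2.33), and the related Matn4 had 31 counts with Osm, 2 with TGF-beta1 and 25 with vehicle. Matn3, left out of these counts of genes as below 1 CPM in every library, had 9 counts with TGF-beta1. It had 0 with Osm and with vehicle, and was past the rule in both comparisons that use the TGF-beta1 library. Partners of collagen VI were thus found on both sides of vehicle. Bgn, which encodes biglycan and had the highest mean CPM of the list, was at 6331 CPM with Osm, 6774 CPM with TGF-beta1 and 6318 CPM with vehicle, and Dcn had the next highest mean. No member of the list passed the rule with Osm over vehicle, where the median was -0.077.

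Of the binding partners of the FACITs, 5 of 6 were measured, with a median log2 ratio of -0.42 for TGF-beta1 over vehicle. In that comparison none was past the rule upward, against 2.27% of all genes compared, and 1 downward, against 4.79%. That gene was Tnxb, which encodes tenascin X, a matrix glycoprotein known to bind collagens XII and XIV. It was at 1592 CPM with Osm, 511 CPM with TGF-beta1 and 1630 CPM with vehicle, 3.19-fold lower with TGF-beta1 than with vehicle (3.12 to 3.26). The highest mean CPM was that of the fibronectin gene Fn1, at 16765 CPM with Osm, 12482 CPM with TGF-beta1 and 16669 CPM with vehicle, and Tnxb had the next highest mean. Apol7d, which overlaps Fn1 on the opposite strand, was at 45.1 CPM or less. With Osm over vehicle none of the 5 passed the rule and the median was -0.20.

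All 18 genes of collagen hydroxylation, folding and export were measured. With TGF-beta1 over vehicle 1 was past the rule upward and none downward, against 2.27% and 4.79% of all genes compared. Of the 18 genes, 12 lay above 0 and 6 below, where 48.7% of all genes compared were below 0. The list's median log2 ratio was 0.24. The gene past the rule was P4ha3, a catalytic subunit of collagen prolyl 4-hydroxylase, at 5.99 CPM with Osm, 13.5 CPM with TGF-beta1 and 4.73 CPM with vehicle. The 2 genes with the highest mean CPM were closer to vehicle. Serpinh1, the collagen chaperone, was 1.29-fold higher with TGF-beta1 than with vehicle (1.27 to 1.31), and P4hb, the other subunit of the hydroxylase, 1.17-fold higher (1.16 to 1.19). With Osm over vehicle 9 were above 0 and 9 below, and none passed the rule.

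None of 3 protease genes linked to cleavage of the alpha 3 tail passed the rule in any comparison. Mmp14, the membrane type matrix metalloproteinase, was at 1098 CPM with Osm, 721 CPM with TGF-beta1 and 1084 CPM with vehicle, lower with TGF-beta1 than with vehicle by a log2 ratio of -0.59 (counting interval of the fold 1.47 to 1.54). A gene that overlaps it on the same strand was at 23.9 CPM or less. Bmp1, the procollagen C-proteinase, was at 628 CPM with Osm, 510.0 CPM with TGF-beta1 and 506 CPM with vehicle, 1.24-fold higher with Osm than with vehicle (1.21 to 1.28). Furin, a proprotein convertase, was at 329 CPM with Osm, 268 CPM with TGF-beta1 and 292 CPM with vehicle.

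With Osm over TGF-beta1, the genes of these lists past the 2-fold rule all stand among those named above. Of all genes compared, 5.07% were past it upward and 2.42% downward. The genes given next are the measured ones. Higher were Col6a6 (4.35-fold, 2.51 to 8.44), Col20a1, Col27a1 (2.94-fold, 1.99 to 4.53), Dcn (2.13-fold, 2.09 to 2.17), Matn4 and Tnxb (3.12-fold, 3.04 to 3.19). Lower were Cspg4, 10.1-fold lower with Osm than with TGF-beta1 (8.46 to 12.3), and P4ha3, 2.24-fold lower (1.78 to 2.85). Dcn and Tnxb lay on the same side of this comparison as Col6a3 and Col14a1, and on the other side from Col12a1 and Col16a1. Cspg4 and P4ha3 lay on the side of Col12a1 and Col16a1. Of the measured receptors and binding partners of collagen VI, 5 were above 0 and 5 below, and of those of the FACITs 3 and 2.

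**Figure D4:**
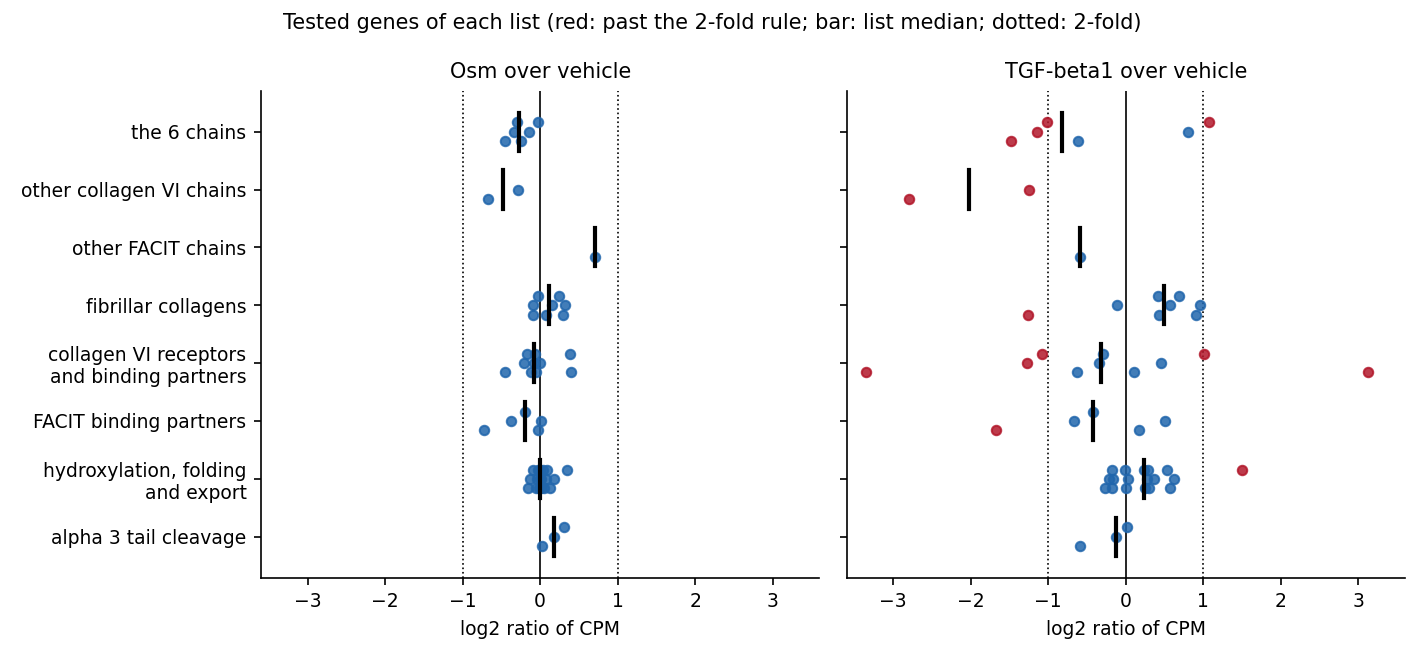
Log2 ratio of CPM (x axis) for the measured genes of each list (y axis) in Osm over vehicle and TGF-beta1 over vehicle; a point is 1 gene, red marks the 2-fold rule, dotted lines 2-fold and the black bar the list's median. The 2 other collagen VI chains measured lie left of 0 in both panels, while with TGF-beta1 the fibrillar collagens have a median of 0.50 and the hydroxylation, folding and export genes of 0.24.

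For each of the 6 chains the 3 protein-coding genes with the most similar pair of log2 ratios, Osm over vehicle and TGF-beta1 over vehicle, were looked up among 9109 candidates with at least 10 CPM in a library. Likeness was the distance in the plane of both ratios, which rest on 3 libraries and share the vehicle. No counting interval was computed for the distances, so the order of genes with low counts is uncertain. Nearest to Col6a3 were Colec12, a scavenger receptor with a collagen-like domain (distance 0.011), Timp2, an inhibitor of metalloproteinases (0.031), and F3, which encodes tissue factor (0.040). Colec12 was at 627 CPM with Osm, 313 CPM with TGF-beta1 and 687 CPM with vehicle. Nearest to Col14a1 were Dkk3 (0.0064), Syngr1 (0.057) and the small proteoglycan gene Prelp (0.081). Dkk3 was at 88.7 CPM with Osm, 37.5 CPM with TGF-beta1 and 105 CPM with vehicle, while Syngr1 overlaps the ribosomal gene Rpl3, which at 661 CPM with vehicle was far above it, and is uncertain.

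Nearest to Col16a1 were Col15a1, the gene of the basement membrane zone collagen XV (0.029), Stbd1 (0.029) and Map6 (0.036). Col15a1 was at 364 CPM with Osm, 769 CPM with TGF-beta1 and 364 CPM with vehicle. Nearest to Col12a1 were the kinase gene Nuak2 (0.052), the replication licensing gene Mcm5 (0.052) and Fbln5, which encodes the elastic fibre protein fibulin 5 (0.055). Fbln5 was at 148 CPM with Osm, 314 CPM with TGF-beta1 and 176 CPM with vehicle. Mcm5 reached 10 CPM only in the TGF-beta1 library, where it was highest, at 11.1 CPM. It was at 4.90 CPM with Osm and 6.14 CPM with vehicle. Nearest to Col6a1 were Ago4 (0.065), the potassium channel subunit gene Kcne4 (0.067) and Myo18a (0.079), and nearest to Col6a2 were Grik5 (0.028), Lipe (0.035) and Fignl2 (0.039). Kcne4 was at 41.8 CPM with Osm, 27.2 CPM with TGF-beta1 and 57.8 CPM with vehicle, and the other 5 of these 6 genes reached between 10.2 and 15.4 CPM with vehicle. Ago4, Grik5 and Lipe reached 10 CPM in the vehicle library only, where they were highest.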

How the data were processed

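The authors deposited a table of raw read counts for each Ensembl gene, with FPKM values beside them, for 1 library per condition. CASAVA, HISAT, HISAT2, TopHat2 and the build mm39 appear, without role or order, in the submitters' processing notes. Counter, annotation release and strand setting: not given in the sources used here. Deposited FPKM values equal the count divided by the deposited gene length and an effective library size. CPM was computed from library totals and TMM factors (edgeR 4.0.16 in R 4.3.3), which were 1.002 for Osm, 0.995 for TGF-beta1 and 1.004 for vehicle. Log2 ratios used a prior count of 0.5, over the 13712 genes that reached 1 CPM in any library. Intervals of a ratio of 2 counts are exact conditional binomial (Clopper-Pearson), those of a level exact Poisson, and those of a shift in the ratio of 2 chains use a normal approximation on the log scale. All are 95% intervals of counting error only, and without molecular identifiers repeat reads of a molecule cannot be told apart. For a count of 0 a limit of 3 counts was used, which lies below the upper bound of the exact Poisson interval. The ratio and interval code was tested on simulated counts.

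With 1 library per condition no model was fitted. The members and gene lists were chosen with earlier results of these data known. The text names the 6 chains, the genes of the short lists, of each longer list those past the 2-fold rule in any comparison and the 2 with the highest mean CPM, and the 3 genes nearest to each chain. The planned description of the proteins was not run. Main transcripts are those with the longest coding sequence in GENCODE vM21 (GRCm38), whose coordinates were not used. Python 3.11.15 with scipy 1.17.1 and pandas 2.3.3 was used, and DESeq2 1.42.0 for alternative size factors.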

Additional observations from a re-analysis of the deposited data

How the results depend on the processing

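Over 8 alternatives, no log2 ratio of the 6 chains turned its direction, and with the 2-fold rule kept none spanned more than 0.14. Dropping the filter, raising it to 10 CPM or using a 1.5-fold rule cannot change the ratio of a gene. Only the alternatives of scaling, FPKM and prior count bear on this result. DESeq2 size factors and the FPKM values with a pseudocount of 0.1 or 1 took Col6a3 below the rule in Osm over TGF-beta1 (0.99, 0.99 and 0.97), leaving 1 chain higher in each case; its main value lay at the threshold. A 1.5-fold rule added Col6a2 and Col12a1 for TGF-beta1 over vehicle, making 2 chains higher and 4 lower. Over all genes that rule gave 288 higher and 228 lower (Osm over vehicle), 824 and 1307 (TGF-beta1 over vehicle) and 1361 and 845 (Osm over TGF-beta1), against 130 and 89, 311 and 657, and 695 and 332 with the 2-fold rule. A minimum of 10 CPM gave 7 and 7, 93 and 228, and 225 and 107, and FPKM with a pseudocount of 1 gave 18 and 10, 83 and 206, and 225 and 92. In Osm over vehicle a prior count of 5 gave 82 and 59 and no filter 237 and 231, so the background there is mostly low genes. No scaling moved the median of all genes by over 0.1.

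Lengths of the main transcripts, an alternative chosen after seeing the data, changed levels between chains. The ratio of Col6a3 to Col6a1 per length was then 1.26 with Osm, 0.930 with TGF-beta1 and 1.01 with vehicle, against 1.14 with Osm, 0.839 with TGF-beta1 and 0.913 with vehicle by deposited length, so that it crossed 1 with vehicle. The ratio of Col6a2 to Col6a1 was 0.969 with Osm, 1.18 with TGF-beta1 and 0.895 with vehicle, against 0.491 with Osm, 0.599 with TGF-beta1 and 0.453 with vehicle, and crossed 1 with TGF-beta1. The ratio of Col12a1 to Col14a1 was 2.41 with Osm, 12.2 with TGF-beta1 and 2.50 with vehicle, against 1.98 with Osm, 9.98 with TGF-beta1 and 2.05 with vehicle. No paired analysis was possible because each condition had 1 library. No library could be left out in turn either, and the spread between cultures was not measured; 888 counts was the lowest of any chain.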
